A study of Mus musculus with 620 samples.

Results

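The genes described here are Atf4 and 8 genes commonly read as its targets or as markers of the integrated stress response: Chac1, Ddit3, Trib3, Asns, Phgdh, Psat1, Shmt2 and Mthfd2. They were taken by symbol, and all 9 were found in each of the 3 mouse count tables, among 24850 genes in the LT table and 40840 in the ST and YA tables. All 9 passed the filter on low counts in colon in every cohort. The choice of genes used no measured value of these libraries, but it was made with earlier results of these data known.

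In the integrated stress response, kinases that sense amino acid shortage, misfolded protein in the endoplasmic reticulum (ER), double-stranded RNA or haem shortage phosphorylate the translation factor eIF2. General translation then slows, while the Atf4 mRNA is translated more, and the ATF4 protein induces genes for amino acid synthesis and uptake, tRNA charging and, when stress lasts, cell death. ATF4 output therefore depends on translation as well as on Atf4 mRNA, and RNA levels of its targets are the usual transcript readout; in the intestine the ER arm is best known from secretory cells.

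The study asked how age, exenatide (a peptide that activates GLP-1R, the receptor of the gut hormone GLP-1), rapamycin (which inhibits mTOR, a growth kinase) and GLP-1R knockdown in the hypothalamus affect mouse tissues, by bulk poly(A) RNA sequencing of 620 libraries from 72 animals. LT, the first cohort, comprised young controls, aged controls and exenatide-treated aged mice, with 284 libraries of 12 tissues. ST added rapamycin and the knockdown: it comprised young controls, aged controls and aged mice with exenatide, with rapamycin, with the knockdown, or with both knockdown and exenatide, in 208 libraries of 7 tissues. YA comprised control and exenatide-treated young adult mice only, in 128 libraries of 8 tissues. The labels give age as the letters Y, A and YA, read here as young, aged and young adult. In colon, the groups were n = 6 young controls, 9 aged controls and 8 exenatide-treated aged mice in LT, n = 5 in each of the 6 ST groups and n = 8 in each YA group. Each replicate was 1 animal, so p-values measure the spread between animals. Strain, sex, ages in months, doses, lengths of treatment and the agent of the knockdown are absent from the labels used. By its label the knockdown is hypothalamic, and ST holds no hypothalamus library used here.

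Libraries held 15190156 to 33786473 counts in LT, 14643153 to 56204841 in ST and 14980061 to 34148943 in YA. Levels are CPM, that is counts scaled to a common library size by the trimmed mean of M values (TMM). Calls are from edgeR's quasi-likelihood F test at a threshold of 0.05 on p-values with Benjamini-Hochberg adjustment over all genes tested in that tissue and comparison.

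Some LT colon libraries stood apart. The libraries labelled colon from young animals A52 and A53 had Car1, an enzyme of colon surface epithelium, at 0.0869 and 0.0469 CPM, against at least 419.7 CPM in every other LT colon library. Their summed goblet cell markers were 18157 and 11570 CPM and their smooth muscle markers 1270.2 and 1080.2 CPM, the lowest of the LT colons. Where leaving out both A52 and A53 ended a call, this is stated with the result. The levels compared by tissue include both. Aged control colons B24 and B27 stood apart in another way, described with the exenatide comparison. Goblet cell markers were present in every colon library. Summed pancreatic acinar cell markers had a median of 1.41 CPM over the 23 LT colons. They reached 731.7 CPM in a young control and 158.2 CPM in an exenatide colon, and at most 8.76 CPM in aged controls. The part of such tissue in the member values was not tested. The exenatide colon of B30 carries the tissue label gastrointestinal tract in another field and was kept as colon, as titled.

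Of the 9 genes, 3 have the core of the C/EBP-ATF element, a composite site that ATF4 is known to bind with C/EBP proteins, within 250 bases before to 50 bases after the annotated start. The motif searched was TGATGNAA on both strands, and 1304 of 32851 windows of the same length (3.97%) hold it. The windows are shown because Chac1 and Trib3 gave the largest differences in LT colon and Asns is the member whose young and aged groups did not overlap; capitals mark the match. Sequences are from RefSeq, build GRCm38.p6, and are printed 5′ to 3′ on the gene's strand, whereas the counts were made on GRCm39. For Chac1 (plus strand, chr2:119350992-119351241) and Asns (minus strand, chr6:7693210-7693459), the 250 bases before the start are given. For Trib3 (minus strand, chr2:152344028-152344057), a stretch of 30 bases around a match that begins 14 bases after the start is given.
Chac1: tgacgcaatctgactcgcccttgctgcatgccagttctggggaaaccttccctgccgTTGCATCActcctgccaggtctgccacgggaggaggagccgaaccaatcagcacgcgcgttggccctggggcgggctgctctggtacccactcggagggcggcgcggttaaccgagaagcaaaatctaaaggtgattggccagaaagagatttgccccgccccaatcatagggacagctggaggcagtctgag
Trib3: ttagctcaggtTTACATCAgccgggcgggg
Asns: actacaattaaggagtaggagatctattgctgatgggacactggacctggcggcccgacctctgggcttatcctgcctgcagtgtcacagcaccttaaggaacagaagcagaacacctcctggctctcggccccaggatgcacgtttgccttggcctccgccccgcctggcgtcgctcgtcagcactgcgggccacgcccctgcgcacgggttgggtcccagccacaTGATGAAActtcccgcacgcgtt
The Chac1 match begins 193 bases before the start and the Asns match 23 bases before it. A match describes these letters and does not show binding. The other 6 genes have no match in this window.

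In the LT colon, 5 of the 9 genes were higher in aged than in young controls and 0 were lower. Of all 17362 genes tested, 14.4% were called in either direction and 6.01% were called higher. The 9 genes had a median log2 fold change of 0.98, against -0.00 over all genes tested. In bulk tissue, fewer cells of a type and less RNA per cell cannot be told apart.

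Atf4, the transcription factor of the response, was at 99.9 to 191 CPM (median 137) in young controls and at 172 to 543 CPM (median 229) in aged controls. The ranges overlapped, and the highest aged value was that of B24. Atf4 rose by 0.92 ± 0.23 (log2 fold change ± SE, adjusted p = 0.0135).

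Chac1, which codes for an enzyme that degrades glutathione, was at 2.49 to 6.63 CPM (median 3.66) in young and at 4.02 to 66.0 CPM (median 28.5) in aged controls. A single aged control, at 4.02 CPM, lay within the young range. Chac1 rose by 2.85 ± 0.54 (adjusted p = 0.00326), the largest change among the 9. Ddit3, which codes for the factor CHOP, went from a median of 12.8 to one of 20.8 CPM and was not called (0.72 ± 0.25, adjusted p = 0.0541).

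Trib3, a pseudokinase that CHOP and ATF4 are known to induce, was at 0.761 to 14.1 CPM (median 1.47) in young and at 2.03 to 35.7 CPM (median 11.01) in aged controls. The young values fell apart: A52 and A53 were at 14.1 and 13.9 CPM and the other 4 between 0.761 and 1.67 CPM. Trib3 was not called with all libraries (1.35, adjusted p = 0.179) and rose by 3.61 ± 0.66 without A52 and A53 (adjusted p = 0.00487). The cellular makeup of these libraries differed as given above, and its part in their Trib3 was not tested.

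Asns, the asparagine synthetase, was at 39.5 to 70.4 CPM (median 52.1) in young and at 82.4 to 234 CPM (median 98.6) in aged controls. It was the only one of the 9 whose groups did not overlap, and it rose by 1.13 ± 0.24 (adjusted p = 0.00529). How many of all genes tested had groups without overlap is not given here. Phgdh, the first enzyme of serine synthesis, had medians of 20.8 CPM in young and 42.6 CPM in aged controls and rose by 1.16 ± 0.26 (adjusted p = 0.00767). Psat1, the next enzyme of that route, had medians of 20.4 and 33.3 CPM and was not called (0.57, adjusted p = 0.0943).

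Mthfd2, a mitochondrial enzyme of folate one-carbon metabolism, had medians of 22.2 CPM in young and 38.05 CPM in aged controls and rose by 0.98 ± 0.27 (adjusted p = 0.0200). Shmt2, which passes the serine carbon to mitochondrial folate, had medians of 30.1 and 39.3 CPM and was not called (0.40, adjusted p = 0.0998). Without A52 and A53, Phgdh lost its call (1.05, adjusted p = 0.0597), and 699 of 17664 genes were called in all. Without B24 and B27, Mthfd2 lost its call (0.62, adjusted p = 0.0543) and Atf4 kept it at 0.52 (adjusted p = 0.0116).

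Within single sequencing batches, the values of the genes that rose were above 0 in each. Chac1 differed by 2.61 in batch 2 (4 young, 5 aged) and by 3.11 in batch 3 (2 young, 4 aged), with adjusted p = 0.0656 and 0.0494. Atf4 differed by 1.28 in batch 2 (adjusted p = 0.0469) and by 0.37 in batch 3 (adjusted p = 0.193). Asns differed by 1.24 and 1.01, Phgdh by 1.03 and 1.52, and Mthfd2 by 1.23 and 0.63, none of them called in a single batch. Over all genes, 341 of 17274 were called in batch 2 and 534 of 17740 in batch 3, against 2503 of 17362 with both batches.

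**Figure D1:**
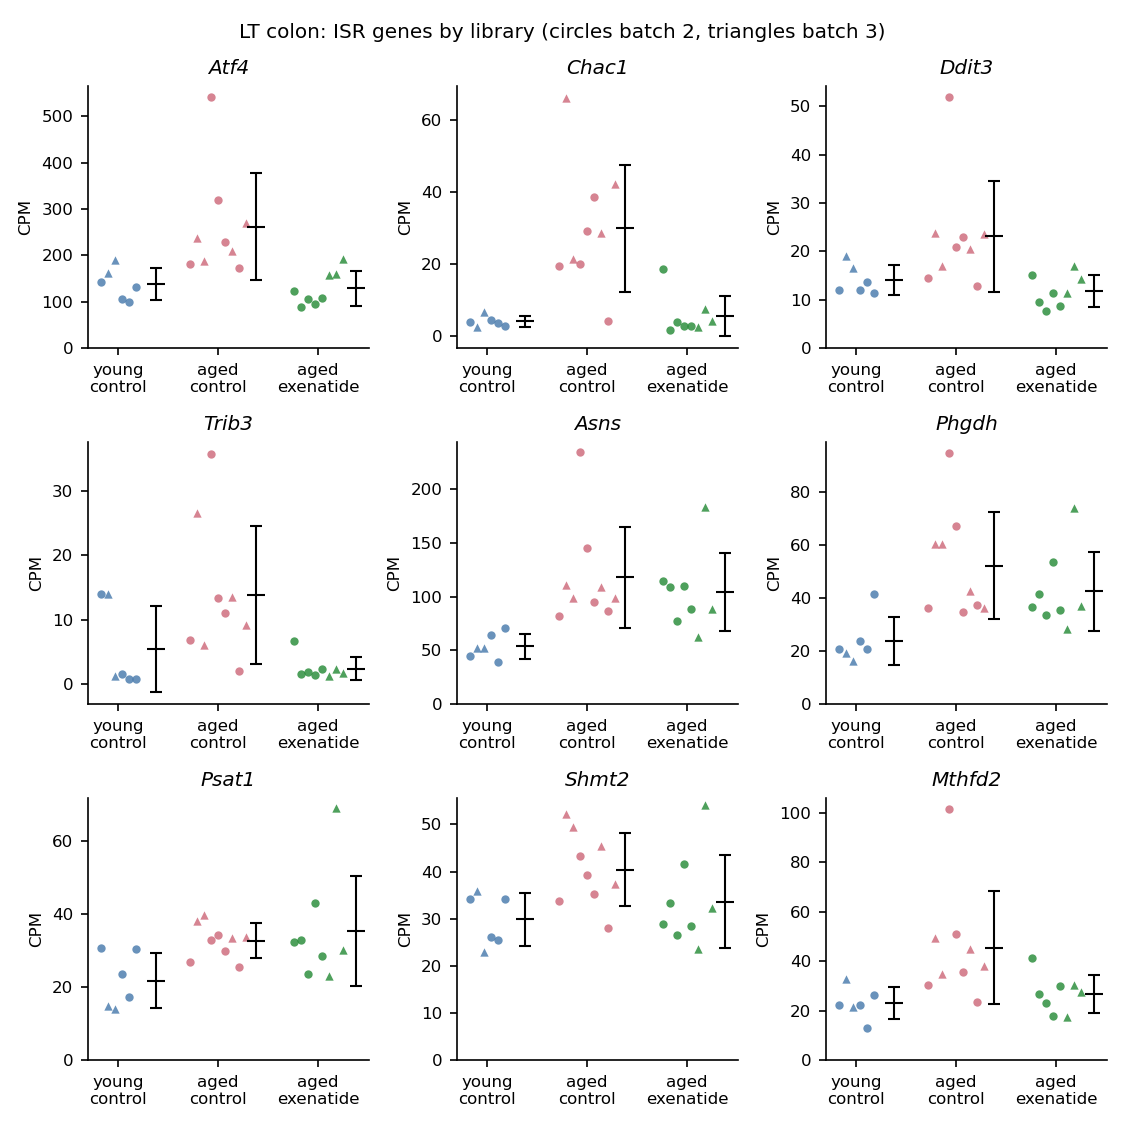
CPM of the 9 genes in each LT colon library, by group on the horizontal axis, with circles for batch 2 and triangles for batch 3; the black mark and bar beside each group are the mean and SD (n = 6, 9 and 8). Chac1 runs from 4.02 to 66.0 CPM in aged controls and from 1.72 to 18.5 CPM in exenatide-treated mice, while Asns stays near 99 CPM in the median of both aged groups.

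Exenatide treatment of aged LT mice was followed by lower colon levels in 5 of the 9 genes and higher levels in 0. Of all genes tested, 12.1% were called in either direction and 6.98% were called lower. The 9 genes had a median log2 fold change of -0.77, against -0.04 over all genes tested. Those called were Atf4, Ddit3, Trib3, Chac1 and Mthfd2; Asns, Phgdh, Psat1 and Shmt2 were not called. The groups overlapped in all 9 genes.

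Atf4 was at 87.9 to 193 CPM (median 116) with exenatide, against 172 to 543 CPM (median 229) in aged controls, and fell by 1.05 ± 0.21 (log2, adjusted p = 0.00450). Chac1 was at 1.72 to 18.5 CPM (median 3.36), against 4.02 to 66.0 CPM (median 28.5), and fell by 2.37 ± 0.48 (adjusted p = 0.00450). The highest exenatide value of Chac1 was that of B13, and the other 7 were between 1.72 and 7.35 CPM, with 2.49 to 6.63 CPM in the young colons.

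Ddit3 was at 7.69 to 17.0 CPM (median 11.4), against 12.8 to 51.97 CPM (median 20.8), and fell by 0.97 ± 0.23 (adjusted p = 0.00967). Trib3 was at 1.33 to 6.66 CPM (median 1.82), against 2.03 to 35.7 CPM (median 11.01), and fell by 2.501 ± 0.65 (adjusted p = 0.0163). The young Trib3 values do not enter this difference, and it was -2.53 with A52 and A53 left out.

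Mthfd2 was at 17.2 to 41.3 CPM (median 27.1), against 23.4 to 101 CPM (median 38.05), and fell by 0.77 ± 0.24 (adjusted p = 0.0439). This call was lost when any 1 of 11 of the 17 libraries was left out, and the difference was -0.47 without B24. Asns had medians of 99.05 CPM with exenatide and 98.6 CPM in aged controls, a log2 difference of -0.17 with an approximate 95% interval of -0.59 to 0.24. The other amino acid and one-carbon enzymes differed by -0.30 (Phgdh), 0.11 (Psat1) and -0.24 (Shmt2), with adjusted p = 0.432, 0.767 and 0.300.

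**Figure D2:**
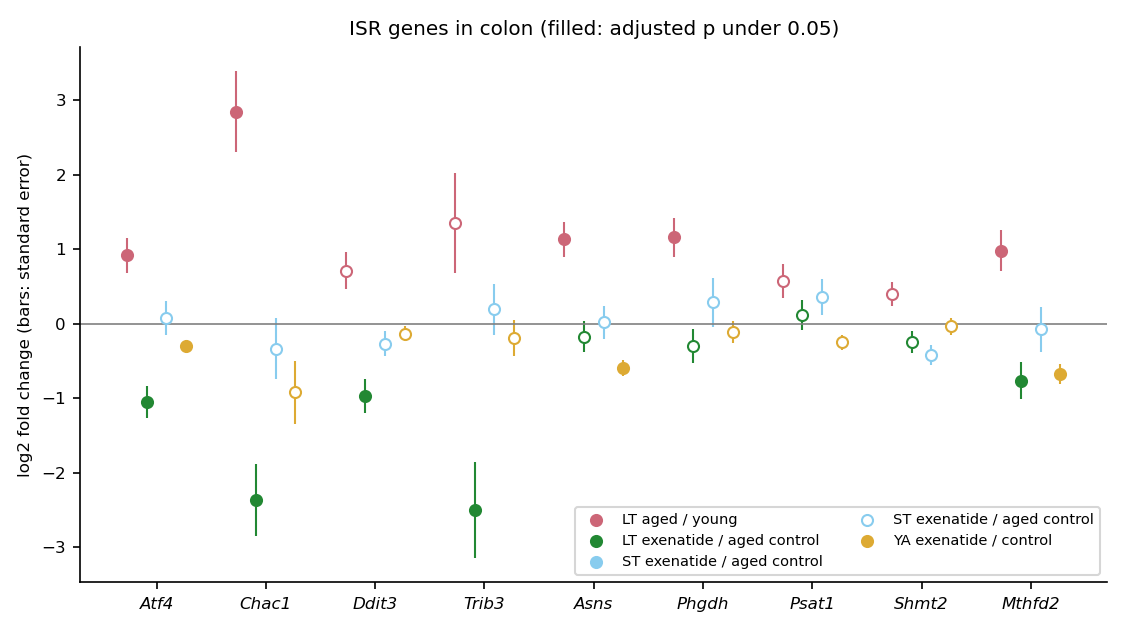
Log2 fold changes of the 9 genes in colon in 4 comparisons, with standard errors as bars; filled points have an adjusted p under 0.05. In LT, Chac1 lies at 2.85 with age and -2.37 with exenatide, in ST no gene is filled, and in YA Asns, Mthfd2 and Atf4 are filled below 0.

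The libraries also differed in how short and long transcripts were represented. A score was computed per library as the median log2 deviation of the shortest 10% of genes less that of the longest 10%. It ran from -0.27 to -0.1131 in the exenatide colons, from -0.1091 to 1.08 in the aged control colons and from -0.22 to 0.28 in the young colons. The exenatide and aged control ranges did not overlap. The highest values were 1.08 in B24 and 0.73 in B27, the libraries with the highest Atf4. Over the 23 LT colon libraries, which share this score with every gene measured in them, Pearson's r between the score and log2 CPM was 0.77 for Atf4, 0.70 for Mthfd2, 0.68 for Ddit3, 0.49 for Trib3 and 0.38 for Chac1. For the genes not called with exenatide it was 0.57 for Phgdh, 0.50 for Asns, 0.35 for Shmt2 and 0.11 for Psat1. Within groups it was 0.76 for Atf4, 0.75 for Phgdh, 0.67 for Mthfd2, 0.64 for Asns and 0.56 for Ddit3. The within-group values of the rest were 0.35 for Shmt2, 0.27 for Trib3, 0.23 for Psat1 and 0.01 for Chac1.

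After removal of the length and GC trend within each library, an alternative chosen after seeing the data, 2.14% of all genes were called with exenatide instead of 12.1%. Atf4 and Chac1 kept their calls, at -0.76 ± 0.18 (adjusted p = 0.0300) and -2.08 ± 0.48 (adjusted p = 0.0297). Trib3 (-2.30, adjusted p = 0.0734), Ddit3 (-0.63, adjusted p = 0.102) and Mthfd2 (-0.59, adjusted p = 0.123) lost theirs. Without B24 and B27, Atf4 (-0.65, adjusted p = 0.00215), Chac1 (-2.39, adjusted p = 0.00868) and Ddit3 (-0.61, adjusted p = 0.0109) kept their calls, and Trib3 (-1.95, adjusted p = 0.0700) and Mthfd2 (-0.37, adjusted p = 0.233) did not. In the comparison of aged with young controls, the trend-removed fit called the 5 genes that had been called before, with 12.3% of all genes called.

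Within batch 2 (5 aged controls and 5 exenatide), Atf4 differed by -1.48 (adjusted p = 0.0171), Ddit3 by -1.24 (adjusted p = 0.0465), Chac1 by -1.90 (adjusted p = 0.0870), Trib3 by -2.31 (adjusted p = 0.120) and Mthfd2 by -0.81 (adjusted p = 0.189). Within batch 3 (4 aged controls and 3 exenatide), the differences were -0.40, -0.57, -3.07, -2.91 and -0.73 in the same order, but in that fit 0 of all 17740 genes were called (2132 at an unadjusted p under 0.05), so that the lack of a call is not particular to these genes. In batch 2, 934 of 17274 genes were called. All 5 were below 0 in both batches.

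Cell type markers in LT colon are set beside the share of all genes called, 12.1% with exenatide and 14.4% with age. With exenatide 1 of 8 goblet cell, 1 of 8 B and plasma cell, 1 of 7 smooth muscle and 2 of 8 enteric neuron and glia markers fell, as did 1 of 7 macrophage, 1 of 8 proliferation and 1 of 7 immediate early genes, and 1 of 6 fibroblast markers rose. Goblet sums were 39372 to 81529 CPM with exenatide, 48078 to 97827 CPM in aged controls and 11570 to 83260 CPM in young controls. B and plasma cell sums were 1061 to 3999 CPM, 1445 to 8142 CPM and 1710.2 to 3941 CPM in the same order, with the highest in B24. With age, 3 of 6 white adipocyte markers, 1 of 6 T cell markers and 1 of 7 enteroendocrine markers fell, 1 of 8 goblet markers rose, and of 10 absorptive epithelium markers 1 rose and 1 fell. Their part in the member values was not tested.

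**Figure D3:**
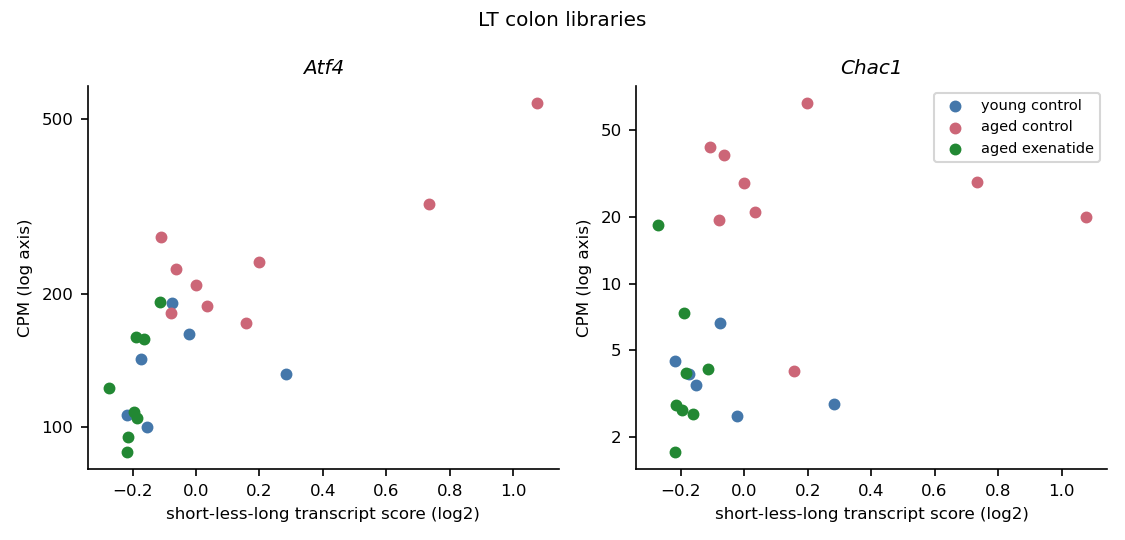
CPM of Atf4 and Chac1 (log axes) against the short-less-long transcript score of each of the 23 LT colon libraries, coloured by group. The 2 aged controls with scores of 0.73 and 1.08 have the highest Atf4, while aged control Chac1 is low (4.02 CPM) in B39, at a score of 0.16, and above the young range in the other 8.

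Exenatide-treated aged colons differed from young colons in 1 of the 9 genes, with 4.47% of all genes called. Asns was at 62.8 to 184 CPM (median 99.05), against 39.5 to 70.4 CPM, and was higher by 0.96 ± 0.24 (adjusted p = 0.0262). Without A52 and A53 it was not called (0.90, adjusted p = 0.113), and leaving out A52, A53 or B36 singly also ended the call. Phgdh (0.86, adjusted p = 0.0649) and Psat1 (0.68, adjusted p = 0.0976) missed the threshold. Atf4 (-0.13) and Chac1 (0.48) were not called, and Trib3 went from -1.15 to 1.08 when A52 and A53 were left out, without a call in either fit. This comparison shares its groups with the preceding ones.

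Other genes of the pathway were taken from lists that hold no member. In the aged LT colon, 8 of 13 aminoacyl-tRNA synthetases, which charge tRNAs, rose, with a list median of 0.46. The 4 with the smallest adjusted p were Aars (0.58), Cars (0.73), Gars (0.64) and Tars (0.58). Of 5 partner and related factors of ATF4, 3 rose: Atf5 (1.14), Cebpb (1.198) and Nupr1 (1.70). Of 7 other target genes measured, 5 rose, among them Gdf15, a circulating stress hormone (2.32), and Ddit4, an inhibitor of mTOR (0.85). Of 9 amino acid transporters, 3 rose: Slc7a5 (0.81), Slc6a9 (0.90) and Slc38a2 (0.42). Of 10 other serine, glycine and one-carbon enzymes, 3 rose: Shmt1 (0.38), Psph (0.78) and Pck2 (0.60). Of 19 ER chaperones and targets of XBP1 or ATF6, the factors of the ER arm, 4 rose: Dnajb11 (0.53), Pdia6 (0.69), Creld2 (0.90) and Sdf2l1 (0.79). Of 5 mitochondrial chaperones and proteases, Clpp rose (0.53), and of 7 genes for the eIF2 kinases and phosphatase 0 passed the test. No gene of these 8 lists fell.

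With exenatide, fewer genes of these lists were called in LT colon. Of the 13 synthetases, 4 fell: Cars (-0.57), Aars (-0.41), Tars (-0.48) and Sars (-0.36). Gdf15 (-2.27) and Ddit4 (-0.67) fell among the 7 other targets, and Cebpb (-1.36) among the 5 partner factors. Of the ER chaperones, 6 of 19 fell, among them Creld2 (-1.05), Pdia6 (-0.72), Dnajb11 (-0.56) and Calr (-0.42). Clpp (-0.58) and Lonp1 (-0.27) fell among the 5 mitochondrial genes. None of the 9 transporters, the 10 serine and one-carbon enzymes or the 7 kinase and phosphatase genes was called. As with the members, each exenatide value shares its aged controls with the age comparison.

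Gene by gene over the 23 LT colon libraries, the closest profiles to Atf4 were those of Atp5k (Pearson's r = 0.94 of log2 CPM), Hypk, Mphosph6, Nudt9 and Nop10 (each 0.93). These 5 also followed the short-less-long score (r from 0.75 to 0.84). In ST colon (n = 30) their r with Atf4 was 0.75, 0.84, 0.92, 0.85 and 0.52, and in YA colon (n = 16) it was -0.03, -0.02, 0.49, -0.09 and 0.22. The closest profiles to Chac1 were those of Aars (0.80), Slc7a5 (0.78), Snrnp35 (0.76), Nup62 (0.75) and Fut1 (0.75), the first of which charges alanine tRNA and the second of which imports large neutral amino acids. With the score these 5 had r of 0.27, 0.09, 0.38, 0.53 and 0.51. In ST colon their r with Chac1 was 0.26, 0.34, 0.20, 0.13 and 0.42, and in YA colon it was 0.30, 0.41, 0.31, -0.06 and 0.34.

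In the YA colon, exenatide was followed by lower levels of 3 of the 9 genes, with 4.61% of all genes called and 2.6% called lower. All 9 log2 fold changes were below 0, with a median of -0.25 against 0.01 over all genes. Asns was at 24.05 to 36.5 CPM (median 27.8) with exenatide and at 33.2 to 48.0 CPM (median 45.5) in controls, ranges that overlapped by a little, and fell by 0.60 ± 0.10 (adjusted p = 0.00456). Mthfd2 was at 10.3 to 13.7 CPM (median 11.5), against 11.3 to 27.8 CPM (median 17.9), and fell by 0.67 ± 0.13 (adjusted p = 0.0102). Atf4 was at 147 to 194 CPM (median 173), against 174 to 246 CPM (median 216), and fell by 0.30 ± 0.08 (adjusted p = 0.0365). The Atf4 call was lost when any 1 of 10 of the 16 libraries was left out. Chac1 was at 0.745 to 4.64 CPM, against 1.15 to 11.9 CPM, and was not called (-0.92, adjusted p = 0.247).

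The 3 calls remained with the length and GC trend removed, at -0.58 for Asns, -0.68 for Mthfd2 and -0.37 for Atf4. In LT colon, Asns was not called with exenatide and Ddit3, Trib3 and Chac1 were; the difference between cohorts was not tested, since the tables were made separately. Of the ER chaperones, 12 of 19 fell, among them Manf (-0.69), Dnajb9 (-0.52), Dnajc3 (-0.48) and Edem1 (-0.42), and the ER kinase gene Eif2ak3 fell by 0.40. Slc7a1 (-0.33), Slc6a9 (-0.33) and Slc1a4 (-0.51) fell among the 9 transporters, Tars (-0.42) and Nars (-0.26) among the 13 synthetases, and Pycr1 (-0.77) and Aldh1l2 (-0.92) among the 10 serine, proline and one-carbon enzymes listed.

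Cell type markers moved in the YA colon as well, where 4.61% of all genes were called. Of 8 goblet cell markers, 5 fell, and their sum was 12986 to 48076 CPM with exenatide and 48315 to 101877 CPM in controls. Of 8 B and plasma cell markers, 3 fell, with sums of 146.8 to 1041 CPM and 853.7 to 2414 CPM, and 1 of 7 macrophage markers fell. Of 10 absorptive epithelium markers, 2 rose, with sums of 7992 to 10105 CPM and 6391 to 8435 CPM. Their part in the lower Asns, Mthfd2 and Atf4 was not tested. Within groups, over the 16 YA colon libraries, Pearson's r with the goblet sum was 0.50 for Asns, 0.04 for Mthfd2 and 0.08 for Atf4. In the same order it was 0.84, 0.73 and 0.11 in ST colon (n = 30) and -0.23, -0.37 and -0.30 in LT colon (n = 23).

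In the ST colon, edgeR called 0 of the 9 genes in each of the 6 comparisons. The share of all genes called was 0.0221% with age, 0.105% with exenatide, 0.392% with rapamycin, 0% with knockdown, 0.166% with exenatide within the knockdown and 0% for the difference between the exenatide effects. At an unadjusted p under 0.05 the counts of members were 1, 1, 2, 0, 2 and 0 in that order, the same in DESeq2, which also called 0. Over all 18115 genes, edgeR gave 575, 1894, 3280, 253, 2564 and 403 at that threshold, in the same order. A young control ST colon had summed pancreatic acinar cell markers of 21171 CPM, against a median of 2.34 CPM over the 30 ST colons. The young ST values below include this library, and its part in the age comparison was not tested.

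Chac1 did not exceed 2.86 CPM in any ST colon. It was at 0.766, 0.778, 0.812, 0.943 and 2.86 CPM in the young controls and at 0.549, 0.690, 0.691, 1.28 and 1.40 CPM in the aged controls. It was at 0.398, 0.710, 0.717, 0.896 and 0.926 CPM with exenatide and at 0.189, 0.419, 0.446, 0.567 and 0.659 CPM with rapamycin. The rapamycin range overlapped the aged control range, and the difference was -1.01 (adjusted p = 0.210). In the knockdown controls it was at 0.383, 0.420, 0.521, 1.06 and 1.16 CPM, and with exenatide in the knockdown at 0.164, 0.167, 0.280, 0.386 and 0.532 CPM, a difference of -1.21 (adjusted p = 0.207).

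Atf4 was at 107 to 134 CPM in young and at 89.1 to 109 CPM in aged ST colons, with a difference of -0.25 (unadjusted p = 0.279), where LT gave 0.92. With exenatide it was at 89.1, 94.0, 97.8, 105 and 133 CPM, a difference of 0.07 with an approximate 95% interval of -0.37 to 0.52. This interval does not reach the LT value of -1.05, but the cohorts' tables were made separately and the difference between them was not tested. A rapamycin colon, E28, had Atf4 at 271 CPM and the others were between 90.5 and 121 CPM; its score of short less long transcripts was 0.69, the highest of the ST colons. Over the 30 ST colon libraries, r between that score and Atf4 was 0.88.

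Shmt2 had the smallest unadjusted p of the members with exenatide in ST colon. It was at 13.9, 14.1, 15.3, 17.5 and 20.9 CPM with exenatide and at 18.7, 21.4, 22.1, 22.1 and 24.8 CPM in aged controls. A single exenatide library overlapped the controls, and the difference was -0.42 ± 0.13 (adjusted p = 0.192). In the knockdown the difference was -0.42 as well (adjusted p = 0.145), and the interaction was 0.00 (unadjusted p = 0.996).

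In the 17 aged LT animals, the colon difference with exenatide was set against that of 7 other tissues in which each animal had a library (the mean log2 CPM over adipose tissue, heart, hippocampus, hypothalamus, kidney, skeletal muscle and spleen). The within-animal difference, colon less other tissues, was tested with limma over 17362 genes, of which 14.3% were called. Trib3 had values of 0.46 to 4.50 (median 2.80) in aged controls and of -0.48 to 2.16 (median 0.09) with exenatide, a difference of -2.41 ± 0.48 (adjusted p = 0.00739). Chac1 had values of -0.69 to 3.31 (median 1.66) and of -1.79 to 1.33 (median -0.82), a difference of -2.53 ± 0.47 (adjusted p = 0.00632). Atf4 (-1.07 ± 0.24, adjusted p = 0.0106) and Ddit3 (-0.91 ± 0.24, adjusted p = 0.0200) were also called. Mthfd2 (-0.70, adjusted p = 0.0708) and Asns (-0.47, adjusted p = 0.181) were not. With the length and GC trend removed, Chac1 (-2.23, adjusted p = 0.0274), Trib3 (-2.14, adjusted p = 0.0334) and Atf4 (-0.78, adjusted p = 0.0494) kept their calls and Ddit3 (-0.59, adjusted p = 0.136) did not.

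Among the 11 other LT tissues, 18 of 99 gene and tissue combinations were called with age, 11 higher and 7 lower, in 7 tissues. In skeletal muscle, heart, kidney and hippocampus edgeR called 0 of the 9, with 11.7%, 17.9%, 7.45% and 0.403% of all genes called. At an unadjusted p under 0.05 there were 3, 0, 1 and 2 members in these tissues, and DESeq2 called 0, 0, 1 and 1. With exenatide, 5 of 99 combinations were called, 4 higher and 1 lower, and 17 were at an unadjusted p under 0.05. The calls were in adipose tissue, hypothalamus and kidney, with 18.8%, 6.2% and 14.2% of all genes called. In liver edgeR called 0 of the 9, but 5 were at an unadjusted p under 0.05 (lowest adjusted p = 0.0533). There 7 of the 9 were above 0 and 2 below, with a median of 0.36 against 0.01 over all genes. For the counts at an unadjusted p under 0.05 in these tissues, the share of all genes is not given, so they have no background here.

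In spleen, 3 of the 9 genes rose with age. Chac1 was at 0.438 to 1.61 CPM (median 0.911) in 8 young and at 2.20 to 7.48 CPM (median 3.76) in 9 aged controls. The groups did not overlap, and Chac1 rose by 2.12 ± 0.26 (adjusted p = 8.2e-06), with 11.2% of all genes called. The call was kept under each of the 8 alternatives and with any library left out (1.95 to 2.27). Trib3 (0.94, adjusted p = 0.0225) and Phgdh (0.41, adjusted p = 0.0122) also rose there, Trib3 losing its call without B27 or B34, and Atf4 was not called. Of the 19 ER chaperones and targets, 14 rose, with Xbp1 (1.01), Creld2 (1.55), Edem1 (0.46) and Sdf2l1 (0.89) at the smallest adjusted p; Atf5 rose by 1.08 and Pycr1, a proline synthesis enzyme, by 1.77. B and plasma cell markers moved with them: 4 of 8 were higher and 1 lower, with sums of 6017 to 9517 CPM in aged and 4890 to 5569 CPM in young controls. Of 7 macrophage markers 1 was higher and 1 lower. Their part in the Chac1 difference was not tested.

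In white blood cells (n = 5 a group, 27.7% of all genes called), 4 of the 9 genes rose and 1 fell. Asns was at 0.711 to 2.15 CPM (median 0.872) in young and at 2.17 to 5.96 CPM (median 3.06) in aged controls, without overlap, and rose by 1.45 ± 0.40 (adjusted p = 0.0158). Chac1 rose by 1.32 (adjusted p = 0.0178), Atf4 by 0.52 (adjusted p = 0.0366) and Ddit3 by 0.45 (adjusted p = 0.0145), and Shmt2 fell by 0.39 (adjusted p = 0.00721). Asns and Chac1 lost their calls without B34, and Atf4 without any 1 of 5 libraries. Of 8 B and plasma cell markers 5 were lower in aged blood, with sums of 1424 to 2102 CPM against 2266 to 3181 CPM, and 5 of 8 proliferation markers were higher; their part in these values was not tested.

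In adipose tissue most calls were of lower levels. With 50.8% of all genes called, 5 of the 9 genes fell with age and 1 rose. Phgdh fell by 1.11 (adjusted p = 0.00340), Asns by 1.02 (adjusted p = 6.5e-04), Psat1 by 1.02 (adjusted p = 5.1e-05), Chac1 by 1.11 (adjusted p = 0.0242) and Trib3 by 0.61 (adjusted p = 0.0428), and Shmt2 rose by 0.20 (adjusted p = 0.0429). Asns was at 66.9 to 109 CPM in young and at 21.9 to 69.9 CPM in aged fat, which overlapped slightly. Sums of white adipocyte markers were 9901 to 19701 CPM in young and 2188 to 9251 CPM in aged fat, without overlap, with 5 of 6 markers lower, and all 8 B and plasma cell, 6 T cell and 7 macrophage markers were higher and all 7 smooth muscle markers lower. Their part in the member values was not tested. The Chac1 call was lost without A53, the Shmt2 call without any 1 of 12 of the 17 libraries and the Trib3 call without any 1 of 11; that of Trib3 was also lost with the length and GC trend removed.

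With exenatide, Chac1 in adipose tissue was at 4.40 to 38.8 CPM (median 9.29), against 1.51 to 8.05 CPM (median 4.01) in aged controls, and rose by 1.57 ± 0.40 (adjusted p = 0.00888), the opposite sign to colon. Atf4 (0.58, adjusted p = 0.00766) and Asns (0.63, adjusted p = 0.0436) also rose there, with 18.8% of all genes called. Adipocyte marker sums were 6524 to 26539 CPM with exenatide and 2188 to 9251 CPM in aged controls, and 3 of 7 smooth muscle markers rose. With the length and GC trend removed, Chac1 was called at 1.31 (adjusted p = 0.0476) and Atf4 and Asns were not. Asns was 0.39 without B36 and lost its call without any 1 of 11 of the 17 libraries.

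Among the single calls in LT tissues, liver Trib3 was at 6.57 to 27.4 CPM in young and at 3.59 to 11.1 CPM in aged controls and fell by 1.31 (adjusted p = 0.0113, 4.5% of all genes called), a call kept under every alternative run. Lung Asns was at 15.7 to 23.9 CPM in young and at 24.8 to 37.1 CPM in aged controls, without overlap, and rose by 0.53 (adjusted p = 5.99e-04, 6.43% of all genes). Frontal cortex Psat1 rose by 0.24 (adjusted p = 0.00584, 5.74% of all genes). Hypothalamic Chac1 rose by 0.46 with age (adjusted p = 0.0171, 7.09% of all genes) and fell by 0.55 with exenatide (adjusted p = 0.0203, 6.2% of all genes); both calls were lost with the length and GC trend removed. Kidney Trib3 rose by 0.84 with exenatide (adjusted p = 0.0250, 14.2% of all genes), but was 0.43 and not called without B36, whose kidney was at 4.06 CPM.

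Exenatide-treated aged tissues other than colon differed from young ones in 25 of 99 combinations, 19 higher and 6 lower, over 8 tissues. The calls were 6 in white blood cells (21.9% of all genes called), 5 each in liver (19.5%) and spleen (13.8%), 4 in kidney (30.1%), 2 in adipose tissue (26.4%) and 1 each in frontal cortex (3.32%), lung (13.1%) and skeletal muscle (16.3%). Spleen Chac1 was higher than in young controls there too, at 2.32 to 4.32 CPM, by 1.68 (adjusted p = 2.7e-04). Liver Phgdh was at 0.419 to 3.88 CPM, against 0.117 to 0.655 CPM, and was higher by 1.84 (adjusted p = 0.00169). Liver Psat1 was higher by 1.99 (adjusted p = 0.0220), but was 0.51 and not called without B36, at 22.3 CPM. The exenatide livers titled B13 and B14 have these animals named the other way round in another field, which does not change their group.

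Animal B36 was the highest of the 8 exenatide-treated LT animals in 33 of 90 gene and tissue combinations over 10 tissues, liver not counted, and the other 7 animals in 5 to 16 each. Its Chac1 was 523 CPM in skeletal muscle and 38.8 CPM in adipose tissue, the highest exenatide values there. Among the 9 aged controls, B19 was the highest in 25 of 81 combinations over 9 tissues, and the others in 3 to 11 each. The 9 genes share their libraries, so these combinations are not independent. How often each animal was the highest over all genes is not given here.

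**Figure D4:**
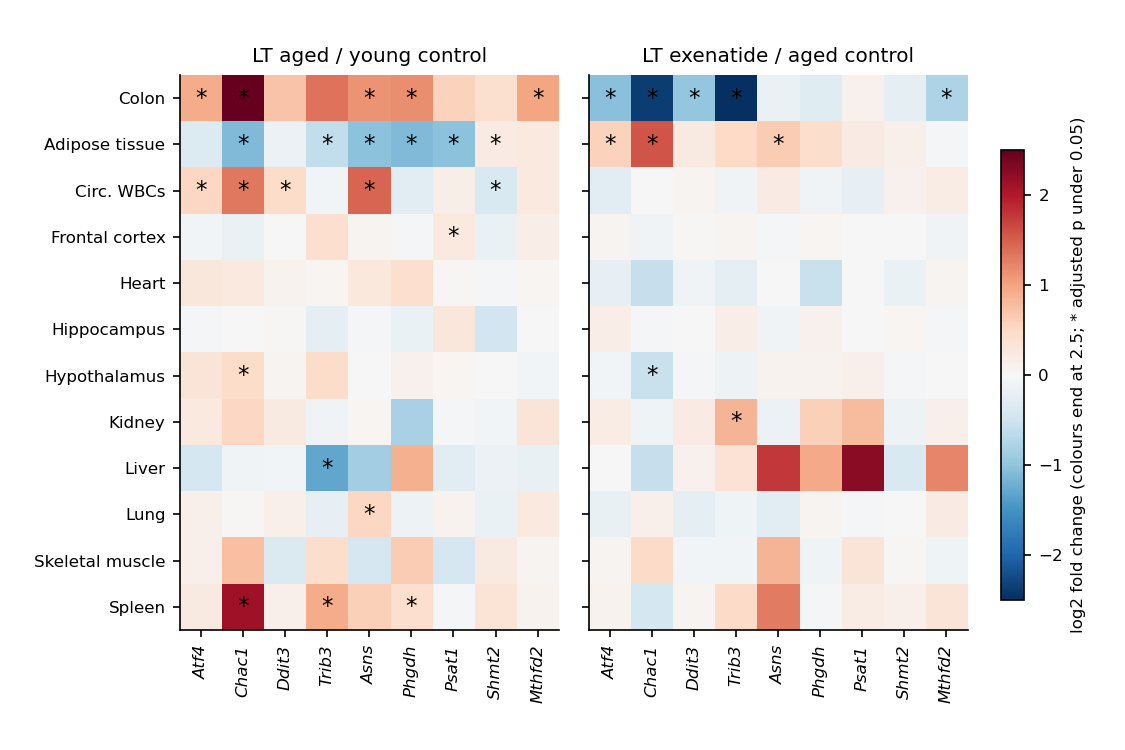
Log2 fold changes of the 9 genes in the 12 LT tissues with age (left) and with exenatide in aged mice (right); colours end at 2.5 and stars mark an adjusted p under 0.05. Chac1 is red with age in colon (2.85) and spleen (2.12), and with exenatide it is blue in colon (-2.37) and red in adipose tissue (1.57).

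In ST tissues other than colon, 6 of 54 combinations were called with age. In heart, Chac1 was at 3.06, 3.596, 5.14, 5.89 and 5.98 CPM in young and at 0.678, 1.39, 1.96, 2.04 and 2.10 CPM in aged controls. The groups did not overlap, and Chac1 fell by 1.53 ± 0.39 (adjusted p = 0.00951), with 24.6% of all genes called. Shmt2 fell by 0.80 ± 0.18 in heart (adjusted p = 0.00528), and both calls were kept under each alternative. All 7 macrophage markers were higher in aged hearts, with sums of 686.6 to 1982 CPM against 443.2 to 600.6 CPM, and of 6 fibroblast markers 3 were higher and 2 lower; their part was not tested. In LT heart, Chac1 was not called with age. The other ST age calls were white blood cell Ddit3 (0.71, 23.6% of all genes), Psat1 in frontal cortex (0.16, 5.56%) and hippocampus (0.22, 26%) and hippocampal Shmt2 (-0.24, or -0.16 without E29). The Ddit3 call was lost without A42, E23 or E30 and with the length and GC trend removed; the short-less-long scores were 0.0914 to 0.97 in aged and -0.50 to 0.0852 in young blood, without overlap. The frontal cortex Psat1 call (adjusted p = 0.0450) was lost without any 1 of 8 of the 10 libraries and under 4 of 5 alternatives, and the hippocampal Shmt2 call without any 1 of 6 and under 3 of 5. The hippocampal Psat1 call was kept with any library left out and under those 5 alternatives.

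Rapamycin gave 7 calls in 54, of which 5 were in heart, with 23.3% of all genes called. Heart Chac1 was at 2.18, 2.52, 4.21, 4.68 and 5.99 CPM with rapamycin, above all 5 aged controls, and rose by 1.26 ± 0.39 (adjusted p = 0.0229). Trib3 (0.75) and Shmt2 (0.62) rose, and Psat1 (-0.56) and Mthfd2 (-1.10) fell. The score of short less long transcripts was -0.49 to 0.81 in the rapamycin hearts and -0.22 to 0.06 in the aged controls, and of the 5 only Mthfd2 kept its call with the trend removed (-1.06, adjusted p = 0.0151). With single libraries left out, Shmt2 kept its call, Mthfd2 lost it without E23 or E6, Trib3 without any 1 of 3, Chac1 without any 1 of 4 and Psat1 without any 1 of 6 of the 10 libraries. Of 7 macrophage markers 4 fell with rapamycin, as did 4 of 8 proliferation markers, and their part was not tested. The others were Asns (-0.18) and Psat1 (-0.19) in hippocampus, with 27.6% of all genes called, which lost their calls without any 1 of 4 and any 1 of 7 libraries.

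In hippocampus, exenatide within the knockdown gave 4 calls, with 31.3% of all genes called. Chac1 was at 2.94, 3.36, 3.38, 3.62 and 3.65 CPM in the knockdown controls and at 4.96, 5.07, 5.16, 5.66 and 6.09 CPM with exenatide. The groups did not overlap, and Chac1 rose by 0.67 ± 0.11 (adjusted p = 1.3e-05). It was lower in the knockdown controls than in aged controls, by 0.44 (adjusted p = 0.0151, 4.98% of all genes), a comparison that shares the knockdown controls and whose call was lost without E13 or E9. The short-less-long score was -0.41 to -0.04 in the knockdown controls and 0.01 to 0.11 with exenatide in the knockdown, without overlap, and with the trend removed Chac1 rose by 0.49 (adjusted p = 4.9e-04). Atf4 (0.45, or 0.27 without E8) and Shmt2 (0.28) rose and Asns fell (-0.15); Atf4 and Shmt2 lost their calls with the trend removed, Shmt2 also without E8 and Asns without any 1 of 5 of the 10 libraries. Exenatide without the knockdown gave Asns (-0.18) and Shmt2 (0.26) in hippocampus (28.6% of all genes) and Shmt2 in skeletal muscle (-0.39, 18.4%). These calls were lost without any 1 of 3 libraries for Asns, without E29 for hippocampal Shmt2 and without any 1 of 7 libraries for that in muscle. The exenatide effect differed with the knockdown for Shmt2 in skeletal muscle (0.70, adjusted p = 0.00996, 19% of all genes), a call lost with the trend removed. In YA tissues other than colon edgeR called 0 of 63, with 0% to 0.0136% of all genes called. There were 8 at an unadjusted p under 0.05, for which the share of all genes is not given, and DESeq2 called 1.

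Levels by tissue were compared within each gene among the young LT controls. Chac1 was highest in skeletal muscle, at 90.2 ± 36.3 CPM (SD, n = 6), with no overlap with adipose tissue, at 9.67 ± 4.13 CPM (n = 8), and lowest in kidney, at 0.642 CPM. Atf4 ran from 139 CPM in colon to 58.5 CPM in kidney, and each tissue in that order overlapped the next. Ddit3 ran from 20.7 CPM in frontal cortex to 6.11 CPM in liver, again with each neighbour overlapping. Trib3 was highest in liver, at 16.02 ± 7.10 CPM, overlapping adipose tissue at 7.22 CPM.

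The enzymes of amino acid synthesis were spread further. Phgdh was at 512 ± 155 CPM in adipose tissue, without overlap with hypothalamus at 78.0 CPM, and at 0.408 CPM in liver. Psat1 was highest in adipose tissue (209 CPM) and then frontal cortex (128 CPM), which overlapped, and lowest in liver. Asns stood between 86.6 and 90.3 CPM in adipose tissue and the 3 brain regions, which overlapped, then at 53.96 CPM in colon and at 20.7 CPM in lung. Colon, at 39.5 to 70.4 CPM, did not overlap frontal cortex or lung, its neighbours in mean. It did overlap adipose tissue (from 66.9 CPM), hypothalamus (from 67.98 CPM) and spleen (up to 57.7 CPM). Shmt2 was highest in kidney (284 CPM) and liver (264 CPM), which overlapped, with a gap to spleen at 57.5 CPM. Mthfd2 was highest in spleen (34.99 CPM) and colon (22.96 CPM), which overlapped, and lowest in liver (1.17 CPM), with no overlap with kidney at 2.697 CPM.

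**Figure D5:**
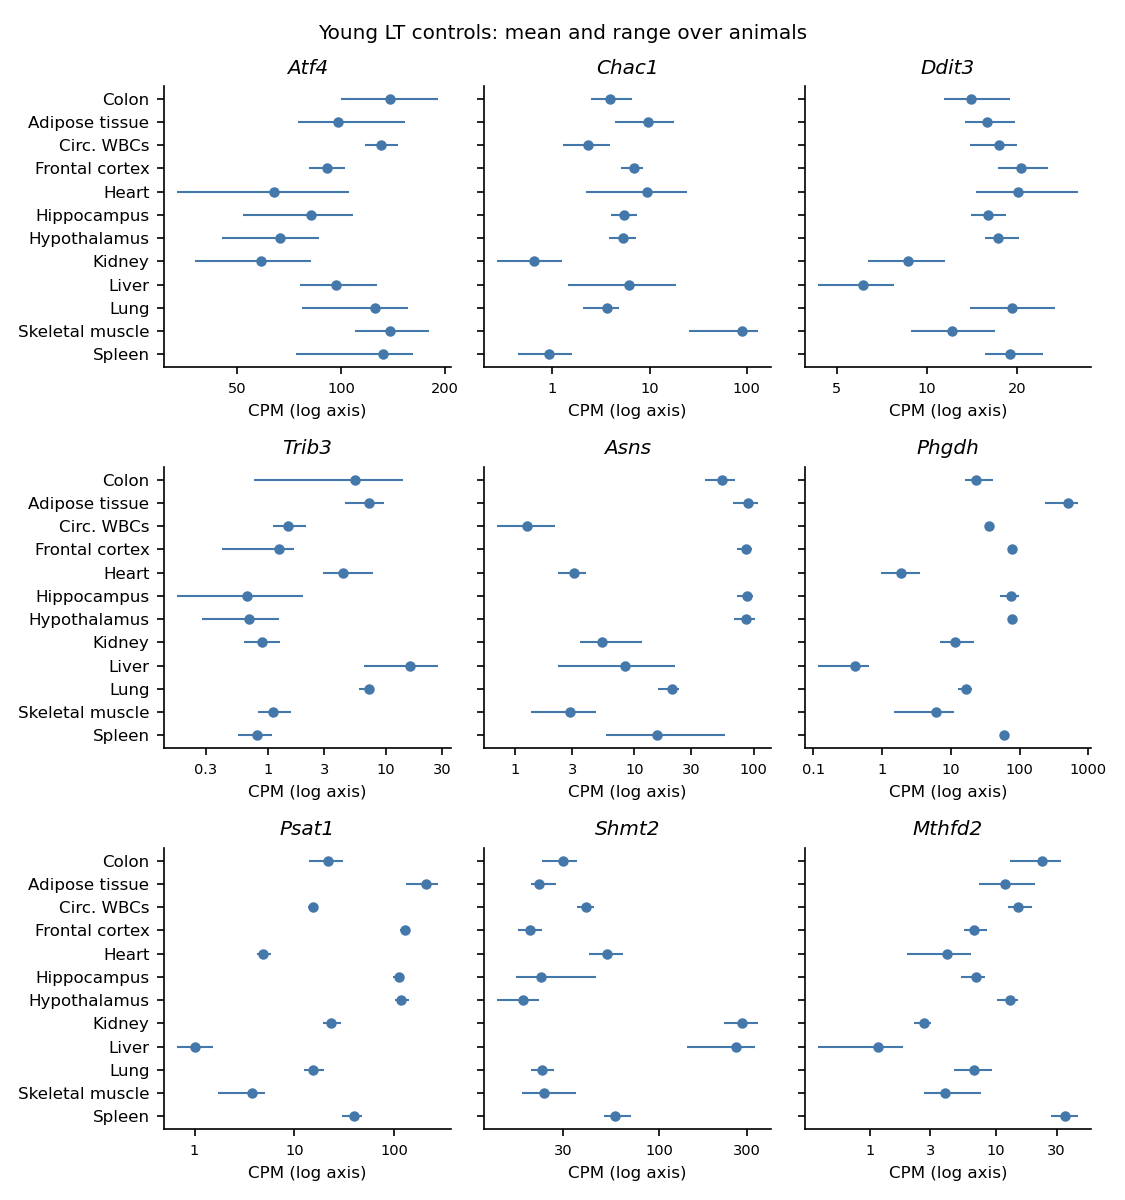
CPM (log axes) of each of the 9 genes in the 12 tissues of the young LT controls, as the mean (point) and the range over animals (line; n = 5 to 8). Skeletal muscle is far to the right for Chac1 (90.2 CPM), adipose tissue for Phgdh (512 CPM), and kidney and liver for Shmt2 (284 and 264 CPM).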

How the data were processed

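RNA was preserved in RNAlater and extracted with TRIzol or RNAqueous, and poly(A) libraries were made with NEBNext Ultra II, which does not mark strand, per the labels' protocols. FastQC 0.11.9 and GRCm39 are named in the submitters' processing notes; the aligner and counter are not given in the sources used here. Whole-number counts were deposited by the authors for LT and estimated counts for ST and YA, of which 7.37% and 7.21% of non-zero values were not whole; these were rounded to whole numbers. Samples were grouped by their labels, and 1 animal gave 1 library per tissue. No 2 libraries compared held identical values. Each tissue was filtered (filterByExpr), scaled by TMM and fitted with edgeR 4.0.16 (quasi-likelihood, robust; sequencing batch as a term in LT) in R 4.3.3. DESeq2 1.42.0 was an alternative, and limma 3.58.1 tested the within-animal difference, which leaves out liver. The fits were tested on simulated data that held no length or GC trend and no batch difference. Alternatives were other size factors, no filter, only the conditions compared, no batch term, single batches, each library left out and, chosen after seeing the data, removal of length and GC trends and of libraries that stood apart. Transcript lengths covered 92.6% of the genes tested in LT colon. The members, pathway lists and marker lists were chosen with earlier results of these data known. Every member is named; of the pathway lists, up to 4 called genes with the smallest adjusted p are named, and of all genes the 5 most correlated with Atf4 and with Chac1.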

Additional observations from a re-analysis of the deposited data

Results flagged for a closer look

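In 27 of 99 colon groups tested (each of the 9 genes in each condition), 1 library stood far from the others of its group. For a single group, chance gives about 1 in 20, or 5%. The 9 genes were measured in the same libraries, so the 99 groups are not independent. In LT aged controls, B24 was the highest for Atf4 (542.7 CPM), Asns (234.1 CPM), Ddit3 (51.97 CPM) and Mthfd2 (101.5 CPM). In LT exenatide colons, B36 was the highest for Asns (183.5 CPM) and Psat1 (68.97 CPM), and B13 for Chac1 (18.54 CPM) and Trib3 (6.656 CPM). Young LT colon A57 was the highest for Phgdh (41.33 CPM).

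In ST colon, rapamycin animal E28 was the highest for Atf4 (271.4 CPM), Ddit3 (16.81 CPM) and Trib3 (2.724 CPM). With exenatide in the knockdown, E33 stood apart for Asns (39.77 CPM), Mthfd2 (10.91 CPM) and Psat1 (14.76 CPM), E15 for Atf4 (41.86 CPM) and E12 for Trib3 (1.267 CPM). Knockdown control E35 stood apart for Asns (37.08 CPM), aged control E29 for Ddit3 (11.12 CPM) and Trib3 (1.53 CPM), exenatide animal E31 for Phgdh (38.82 CPM) and young animal A43 for Chac1 (2.86 CPM). In YA colon the libraries were A87 (Chac1, 11.86 CPM) and A32 (Psat1, 11.25 CPM) among controls, and A31 (Chac1, 4.642 CPM), A88 (Ddit3, 26.8 CPM) and A79 (Shmt2, 33.54 CPM) with exenatide.

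Exenatide differences that themselves differed by a test were those of colon less other tissues in LT, for Atf4 (-1.07), Chac1 (-2.53), Ddit3 (-0.91) and Trib3 (-2.41), and that of Shmt2 in ST skeletal muscle between animals with and without the knockdown (0.70).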

How the results depend on the processing

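No called gene changed direction under the alternatives run. Of 84 calls of a member in a tissue and comparison, 38 were kept with any library left out and 20 under every alternative. Including the 4 within-animal calls, 33 of 88 were lost with the length and GC trend removed and 1 with DESeq2. In LT colon, the 5 calls with age became 3 with only the conditions compared, 1 in batches 1 and 2 alone and 1 in batch 3 alone; the 5 calls with exenatide became 2, 0, 3 and 2 in batches 1 and 2, in batch 3, without B24 and B27 and with the trend removed. Calls over all genes fell as well, with age from 2503 to 610, 341 and 534, and with exenatide from 2098 to 934 in batches 1 and 2, 0 in batch 3 and 371 with the trend removed, but were 2319 without B24 and B27. Without A52 and A53, the calls with age over all genes fell to 699. The 1 call of exenatide-treated aged against young colon ranged from 0 to 2 with single libraries left out; it became 3 with DESeq2, 0 with only the conditions compared, in either batch set or without A52 and A53, and 2 without B24 and B27 or with the trend removed. In other LT tissues, the 18 age calls became 3 in batch 3; the 5 exenatide calls became 3 with only the conditions compared, with no batch term or with the trend removed, and 1 in batch 3; the 25 calls against young became 15, 11 and 14 with only the conditions compared, in batches 1 and 2 and in batch 3. In other ST tissues, with single libraries left out, the 3 exenatide calls ranged from 1 to 4, the 7 rapamycin calls from 3 to 8, the 1 knockdown call from 0 to 2 and the 4 calls of exenatide within the knockdown from 3 to 7. With only the conditions compared these became 3 for rapamycin, 0 for the knockdown and 2 for exenatide within the knockdown, which was 7 with DESeq2. With the trend removed the exenatide calls became 1 and the interaction call 0. The 0 YA calls became 1 with DESeq2. The cause was not tested; single batches also hold fewer samples. No paired analysis was possible because each animal is in 1 condition; animals recur only across tissues, as used in the within-animal difference.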
